A study of Mus musculus with 15 samples.

Results

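Mammospheres given PHA and ICG together for 24 h were compared with mammospheres given DMSO, the vehicle, in the second of the 2 sets of cultures in the series. The comparison holds 6 of the 15 arrays of the series, 3 for PHA+ICG and 3 for DMSO, chosen by the treatment in their titles and by the array code that marks the second set. Mammospheres are spheres that mammary cells form when they cannot attach to a dish. Here they were grown for 7 days from single cells of primary mammary tumours, and 250 ng of total RNA was labelled for each Affymetrix mouse array. All groups share 1 strain, FVB/N, and the genotype WAPCre-DNbcatn;HGF. WAP is the whey acidic protein promoter, which drives Cre in secretory mammary epithelium, and HGF is the ligand of the MET receptor; the middle term is, as known of such mice, a stabilised form of β-catenin. The remaining 9 arrays form a first set of 3 PHA, 3 ICG and 3 DMSO arrays with the same genotype and treatment time. The labels give no dose. They also leave unsaid whether the replicates come from separate cultures or mice. P-values here therefore compare treatments only with the variation among these arrays, part of which may be technical, and the number of arrays limits the precision.

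The series text names Wnt and MET pathway inhibitors; from what is known of compounds with such names, PHA would be an inhibitor of the MET receptor tyrosine kinase and ICG an inhibitor of transcription by β-catenin and its coactivators. MET signals through RAS and ERK to growth, motility and branching of mammary epithelium. β-catenin, when it is not degraded, enters the nucleus, binds TCF/LEF factors and switches on Wnt target genes, and both pathways are linked to self-renewal of mammary tumour cells. The question of the comparison is what blocking both at once does to the transcripts of these spheres.

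Array 1 of each group stood apart from arrays 2 and 3. Over all genes DMSO 2 and DMSO 3 correlated at 0.996, while DMSO 1 correlated at 0.979 and 0.981 with them and at 0.982 with PHA+ICG 1. The 18 macrophage markers had a mean of 8.52, 6.88 and 6.83 on the PHA+ICG arrays and of 9.53, 7.69 and 7.62 on the DMSO arrays, in log2 units and in the order of the replicate numbers. Array 1 was therefore the highest of its group for this list in both groups. Lyz2, the lysozyme of macrophages, read 14.48, 12.79 and 12.79 with PHA+ICG and 14.67, 12.98 and 13.01 with DMSO. Epithelial markers were present on all 6 arrays: Epcam lay between 8.36 and 10.05 with PHA+ICG and between 9.61 and 10.37 with DMSO, and Krt18 between 8.95 and 10.27 with PHA+ICG and between 10.22 and 10.38 with DMSO. In such bulk samples fewer cells of a type and less RNA per cell cannot be told apart. Array medians ran from 5.75 to 5.92 and lower quartiles from 4.23 to 4.50, so values near or under these quartiles are close to the floor of the arrays. As signs of RNA quality, the 3′ probe set of Gapdh exceeded its 5′ one by 0.443, 0.685 and 0.0789 log2 units on the PHA+ICG arrays, against 0.128, 0.145 and 0.272 on the DMSO arrays, and that of Actb by 0.776, 0.506 and 0.489, against 0.715, 0.553 and 0.501. PHA+ICG 1 and 2 were thus highest for Gapdh and array 1 of each group for Actb, and the part of RNA quality in the results was not tested.

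Of 18193 genes, 368 (2.02%) passed limma at a Benjamini-Hochberg adjusted p under 0.05, 87 higher (0.478%) and 281 lower (1.54%) with PHA+ICG than with DMSO. Of these, 62 and 221 differed at least 2-fold. The split was 134 higher and 235 lower after quantile normalization and 109 higher and 214 lower after centring each array on its median. Array 1 of both groups deviated together, while arrays 2 and 3 correlated across numbers about as much as by number. With the replicate number as a block 1442 genes (7.93%) passed, 349 higher (1.92%) and 1093 lower (6.01%). All 368 genes were among the 1442, in the same direction. The count rests on arrays 2 and 3: without PHA+ICG 2 it was 189, without PHA+ICG 3 it was 89, without DMSO 2 it was 67 and without DMSO 3 it was 56, against 389 without PHA+ICG 1 and 316 without DMSO 1. Without array 1 of both groups 886 genes passed, 133 higher and 753 lower. Without array 2 of both groups 0 passed (1675 at an unadjusted p under 0.05), and without array 3 of both groups 0 passed (1207), each with 2 arrays a group; limma with trend and robust settings called 84 and 49. On all 6 arrays 2426 genes (13.3%) had an unadjusted p under 0.05. Across all genes, 3326 (18.3%) had values that did not overlap between the groups, 1333 higher (7.33%) and 1993 lower (11%), and all 368 called genes were among them. Counts in the gene lists below are to be read against these shares.

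The 15 genes that rose most do not belong to 1 gene family. Of 30 genes of neural adhesion families 2 rose, Tenm4 and Nrcam (3 higher and 2 lower with the block; median 0.02), and of 17 MAGUK scaffolds 1 rose, Dlg2 (2 with the block; median −0.07). Chchd10, a protein of the space between the mitochondrial membranes, read 13.31, 13.48 and 13.43 with PHA+ICG, against 10.59, 10.58 and 10.77 with DMSO. The 3 PHA+ICG arrays lay close together and all far above the DMSO arrays, a log2 difference of 2.76 ± 0.15 (SE; limma adjusted p = 0.00103), the smallest adjusted p among the 15 highest genes. Tenm4, a teneurin that spans the membrane and joins cells, read 9.23, 10.02 and 10.14 with PHA+ICG, against 6.45, 6.89 and 7.00 with DMSO (3.02 ± 0.27; adjusted p = 0.00447). Its 3 probe sets all rose, by 3.02 to 3.44. Dlg2, a scaffold of the MAGUK family that anchors receptors at synapses, read 6.33, 6.34 and 6.98 with PHA+ICG, against 3.96, 3.93 and 4.12 with DMSO (2.55 ± 0.21; adjusted p = 0.00306). The DMSO values of Dlg2 lie under the lower quartile of every array, and its 3 probe sets rose by 0.18 to 2.55.

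Car6, a secreted carbonic anhydrase, had the largest rise, 12.5-fold. It read 10.43, 9.94 and 11.06 with PHA+ICG, against 5.38, 8.02 and 7.11 with DMSO, and its log2 difference was 3.64 ± 0.60 (limma adjusted p = 0.0252). The DMSO arrays of Car6 spread over more than 2 log2 units, with array 1 lowest. Nrcam, an adhesion protein of the L1 family, read 9.82, 10.30 and 10.21 with PHA+ICG, against 6.62, 7.90 and 7.85 with DMSO (2.65 ± 0.34). Ednrb, the endothelin B receptor, read 7.35, 7.26 and 8.05 with PHA+ICG, against 4.78, 5.38 and 5.33 with DMSO (2.39 ± 0.26). In both genes every PHA+ICG array lay well above every DMSO array. The 4 probe sets of Nrcam rose by 0.38 to 2.65 and the 3 of Ednrb by 0.45 to 2.39. Prss12, a secreted serine protease known as neurotrypsin, rose by 2.28 ± 0.17, and Mmp11, the matrix protease stromelysin-3, by 2.03 ± 0.23. Avil, an actin-binding protein of the villin family, rose by 2.45 ± 0.31, Paqr3, a Golgi protein that binds RAF kinases, by 2.20 ± 0.21, and Unc45b, a chaperone of myosin, by 2.27 ± 0.35. Prr32 rose by 3.12 ± 0.34. Mei4, a gene needed for DNA breaks in meiosis, rose by 2.70 ± 0.35 from DMSO values of 2.78 to 3.65 that lie under the lower quartile of every array.

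Among the genes that fell most were those of a receptor, of enzymes, of a pair of imprinted noncoding RNAs and of a calcium-binding protein. Agtr2, the type 2 angiotensin receptor, read 5.90, 4.95 and 5.38 with PHA+ICG, against 9.53, 8.77 and 9.01 with DMSO, a 12.9-fold fall (−3.69 ± 0.28; limma adjusted p = 0.00259). Aoc3, a vascular amine oxidase that also serves as an adhesion protein, read 6.10, 5.81 and 6.04 with PHA+ICG, against 9.76, 9.31 and 9.08 with DMSO (−3.40 ± 0.21; adjusted p = 0.0012). Arg1, the arginase that splits arginine into ornithine and urea, read 5.34, 4.84 and 4.69 with PHA+ICG, against 8.50, 8.33 and 8.06 with DMSO (−3.34 ± 0.21; adjusted p = 0.00132). For all of these even the highest PHA+ICG array was far below the lowest DMSO array. Aoc3 was the only 1 of 12 pericyte and smooth muscle markers to pass (2 lower with the block), the median of that list being −0.10. Arg1 was the only 1 of 15 genes of arginine and polyamine metabolism to pass (1 higher and 2 lower with the block), with a list median of −0.05.

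Rian and Meg3, noncoding RNAs of the imprinted Dlk1-Dio3 region, fell together. Rian read 7.34, 7.70 and 7.71 with PHA+ICG, against 11.17, 10.13 and 10.41 with DMSO (−2.99 ± 0.27). Meg3 read 8.51, 9.01 and 9.33 with PHA+ICG, against 11.90, 11.14 and 11.16 with DMSO (−2.45 ± 0.28), and all 11 of its probe sets were lower, by 0.23 to 3.10 in size. DMSO 1 was the highest array for both RNAs. Of 24 imprinted genes 3 fell (12.5%, against 1.54% of all genes), the last being Peg3, a zinc finger gene expressed from the paternal allele (−1.19 ± 0.17, although 2 of its 5 probe sets had the opposite sign). With the block 6 of the 24 fell, against 6.01% of all genes, among them Mirg, a further RNA of the same region (−1.59 ± 0.41; adjusted p = 0.106 without the block and 0.00626 with it). S100a4, a calcium-binding protein of motile cells, read 10.81, 10.81 and 10.09 with PHA+ICG, against 13.32, 12.96 and 12.96 with DMSO (−2.51 ± 0.23). Of the 14 S100 genes measured S100a8 (−1.51 ± 0.23), a protein of neutrophils and stressed keratinocytes, and S100a13 (−1.12 ± 0.19) also fell. The 3 are 21.4% of the list, and its median was −0.57, against 0.0015 over all genes.

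The other genes of the 15 lowest were Col11a1 (−3.30 ± 0.60), a fibrillar collagen chain, the kinase gene Nrk (−2.51 ± 0.20), the small heat shock protein gene Cryab (−2.47 ± 0.40), Aldh1a7 (−2.46 ± 0.38), an aldehyde dehydrogenase, and Armh4 (−2.45 ± 0.41). They also hold Prl8a9 (−2.40 ± 0.30), of the prolactin family, Tmem35a (−2.35 ± 0.26), a chaperone of nicotinic receptors, Fabp4 (−2.35 ± 0.28), the fatty acid-binding protein of adipocytes and macrophages, and Krt6b (−2.33 ± 0.41), a keratin of stressed epithelium. Col11a1 read 6.04, 5.22 and 5.02 with PHA+ICG, against 7.19, 9.53 and 9.46 with DMSO, so that array 1 of each group lay toward the other group. Of the 30 genes at both ends, 16 passed without any 1 of the 6 arrays and the other 14 missed the threshold without at least 1. Col11a1, Aldh1a7, Armh4 and Krt6b passed in 2 of the 6 cases, and Car6, Trib3, Unc45b and Cryab in 3 of the 6.

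**Figure D1:**
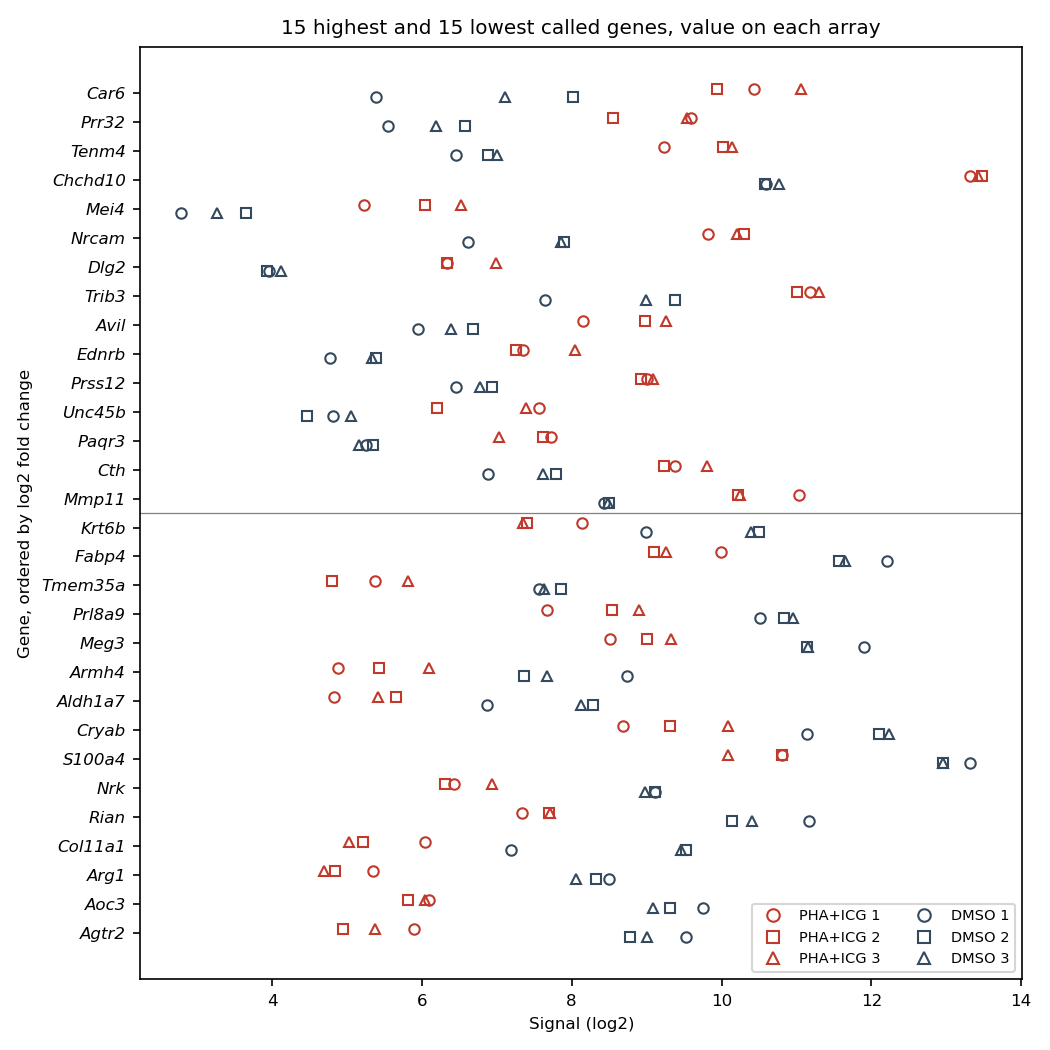
Deposited log2 signal of the 15 highest and 15 lowest called genes on each array of the second set, PHA+ICG in red and DMSO in dark blue, with a symbol for each replicate number. The groups do not overlap for any of the 30 genes, and DMSO 1 lies apart from DMSO 2 and DMSO 3 for Car6, Nrcam, Trib3, Col11a1 and Rian.

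Genes of mitosis were lower on the PHA+ICG arrays, and 18 of 41 fell. All 41 G2/M and mitosis genes measured had a negative log2 difference, and 43.9% passed the test (33 genes with the block), against 1.54% of all genes that were called lower (6.01% with the block). The list median was −1.07, against 0.0015 over all genes, and it was −0.96 after quantile normalization, where 12 passed. Without array 1 of both groups 23 passed. The mean of the list was 6.42, 6.98 and 7.01 on the PHA+ICG arrays and 7.86, 8.00 and 7.96 on the DMSO arrays, so the 3 DMSO arrays lay close together and PHA+ICG 1 was lowest. Mki67, the proliferation marker, read 6.50, 7.37 and 7.27 with PHA+ICG, against 9.11, 9.12 and 9.13 with DMSO (−2.07 ± 0.24; limma adjusted p = 0.00791). Birc5, which encodes survivin of the chromosomal passenger complex, read 6.16, 6.46 and 6.35 with PHA+ICG, against 8.27, 8.27 and 8.22 with DMSO (−1.93 ± 0.15). The largest fall was that of Ccnb2, cyclin B2, which read 5.37, 5.48 and 6.35 with PHA+ICG, against 7.89, 8.22 and 7.47 with DMSO (−2.13 ± 0.30). Top2a, the topoisomerase that untangles chromosomes (−2.10 ± 0.28), Cenpa, the histone variant of centromeres (−1.90 ± 0.21), and Ube2c, a ubiquitin carrier of the anaphase-promoting complex (−1.83 ± 0.20), fell by similar sizes; 1 of the 3 probe sets of Top2a and of Cenpa had the opposite sign (0.10 and 0.11).

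Of 36 genes of G1/S and DNA replication 6 fell (16.7%, against 1.54% of all genes; 17 with the block, 5 after quantile normalization), 32 were negative and the median was −0.57. Mcm5, a subunit of the replicative helicase, read 6.84, 6.51 and 7.27 with PHA+ICG, against 8.61, 8.60 and 8.69 with DMSO (−1.76 ± 0.21; limma adjusted p = 0.00846). Tk1, the thymidine kinase of S phase, fell by 1.39, Uhrf1, which carries DNA methylation through replication, by 1.29, Mcm6 by 1.27, the DNA ligase gene Lig1 by 1.00 and Rrm1, a ribonucleotide reductase subunit, by 0.99 on the log2 scale. Of 24 cyclins, cell cycle kinases and inhibitors 4 fell (16.7%, against 1.54% of all genes, and 7 with the block): Ccnb2, the mitotic kinase Cdk1 (−1.52 ± 0.21), cyclin E2, Ccne2 (−1.43 ± 0.19), and cyclin A2, Ccna2 (−1.27 ± 0.25). Ccnd1, cyclin D1, read 12.11, 12 and 12.71 with PHA+ICG, against 12.30, 12.34 and 12.45 with DMSO, and the groups overlapped (−0.09 ± 0.21). Cdkn1a, the inhibitor p21, also overlapped (−0.13 ± 0.19).

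Promoters of mitotic genes often hold the cell cycle homology region, TTTGAA, which is bound by the DREAM and MuvB complexes. In RefSeq promoters of build GRCm38.p6, from 250 bases before to 50 after each gene's start, TTTGAA was found on either strand in 27 of the 35 G2/M genes with a promoter in the table (77.1%), against 18.1% of all 27025 promoters. The promoters of the mitotic genes with the largest falls that hold it are shown because they show where the motif lies, with the motif in capitals, 5′ to 3′ on the strand of the gene. Ccnb2 lies at chr9:70421505-70421804 and Top2a at chr11:99024140-99024439, both on the minus strand. These letters cannot also be a match to CTTTGAT, the TCF/LEF motif searched in the same way.
Ccnb2: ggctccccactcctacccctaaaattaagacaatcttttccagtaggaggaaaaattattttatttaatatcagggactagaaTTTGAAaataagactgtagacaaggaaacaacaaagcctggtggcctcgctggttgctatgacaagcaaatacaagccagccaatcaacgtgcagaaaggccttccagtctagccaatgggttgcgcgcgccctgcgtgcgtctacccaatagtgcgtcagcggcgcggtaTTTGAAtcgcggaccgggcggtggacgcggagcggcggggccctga
Top2a: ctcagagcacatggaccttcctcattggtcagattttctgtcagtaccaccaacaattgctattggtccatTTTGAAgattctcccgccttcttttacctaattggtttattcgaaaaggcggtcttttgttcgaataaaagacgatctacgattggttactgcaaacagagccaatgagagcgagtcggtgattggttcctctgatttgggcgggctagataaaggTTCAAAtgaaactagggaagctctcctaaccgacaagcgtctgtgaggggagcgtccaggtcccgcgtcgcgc

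Genes of cholesterol synthesis were lower throughout the list. All 20 genes measured for cholesterol synthesis and uptake had a negative difference and an unadjusted p under 0.05. Of all genes 13.3% had such a p in either direction. Of the 20, 10 passed (50%, against 1.54% of all genes called lower) and 17 with the block (against 6.01%). Without array 1 of both groups 11 passed, and the median on all 6 arrays was −0.998. These genes are switched on by SREBP2 when membranes are short of sterol. The mean of the list was 8.98, 8.74 and 8.94 on the PHA+ICG arrays, against 9.88, 10.01 and 9.99 on the DMSO arrays. Array 1 did not stand apart here, and the groups did not overlap. Fdps, the farnesyl pyrophosphate synthase, read 9.65, 9.09 and 9.49 with PHA+ICG, against 11.02, 11.53 and 11.52 with DMSO (−1.94 ± 0.22; limma adjusted p = 0.00745). Idi1, which isomerises isopentenyl pyrophosphate, read 9.81, 9.66 and 9.52 with PHA+ICG, against 11.08, 11.37 and 11.29 with DMSO (−1.58 ± 0.16; adjusted p = 0.00672). Hmgcs1, which makes the substrate of the rate-limiting reductase, read 11.15, 11.15 and 11.14 with PHA+ICG, against 12.22, 11.90 and 11.98 with DMSO (−0.89 ± 0.16; adjusted p = 0.0308). Falls were also seen for Tm7sf2 (−1.75 ± 0.20) and Nsdhl (−1.47 ± 0.16), which act late in the path, Fdft1, the squalene synthase (−1.71 ± 0.21), Mvd, which decarboxylates mevalonate pyrophosphate (−1.27 ± 0.17), and Lss, the lanosterol synthase (−1.26 ± 0.20). Another probe set of Fdps and 1 of the 4 of Fdft1 had the opposite sign (0.02 and 0.11). Of 18 fatty acid synthesis and desaturation genes 1 fell, the desaturase gene Fads2 (−1.21 ± 0.16; 3 with the block).

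The box CCAAT, bound by NF-Y, which acts with SREBP at many sterol genes, was found on either strand in 15 of the 16 cholesterol genes with a promoter in the table (93.8%), against 37.9% of all 27025 promoters. It was also found in 17 of 18 promoters of the endoplasmic reticulum list (94.4%) and 26 of 35 of the G2/M list (74.3%). The exact letters of the classical sterol regulatory element, which SREBP itself binds, were found in 0 of the 16 cholesterol promoters and 0 of 219 promoters of genes called lower, against 23 of all promoters (0.0851%). The promoter of Idi1, at chr13:8885356-8885655 on the plus strand, is shown for its 2 matches to the box on the opposite strand, in capitals, 45 and 14 bases upstream of the start.
Idi1: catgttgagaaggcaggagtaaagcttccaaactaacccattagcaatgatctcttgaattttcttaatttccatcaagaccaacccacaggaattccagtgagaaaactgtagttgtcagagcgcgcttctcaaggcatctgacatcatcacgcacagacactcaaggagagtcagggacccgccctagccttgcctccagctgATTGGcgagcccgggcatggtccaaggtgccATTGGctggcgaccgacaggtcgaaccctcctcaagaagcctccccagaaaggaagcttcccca

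Genes of the ATF4 response were mostly higher. Cells that lack amino acids or carry stressed mitochondria or endoplasmic reticulum phosphorylate eIF2α, and the transcription factor ATF4 then raises genes of amino acid synthesis, uptake and tRNA charging. Of 27 such genes 25 had a positive difference, 5 rose (13 with the block; 6 rose and 1 fell without array 1 of both groups) and the median was 0.64; of all genes, 0.478% were called higher. The mean of the list was 10.71, 10.21 and 10.42 with PHA+ICG, against 9.46, 9.81 and 9.84 with DMSO, with array 1 at the top of its group in PHA+ICG and at the bottom in DMSO. Trib3, a pseudokinase induced by ATF4, read 11.18, 11.01 and 11.30 with PHA+ICG, against 7.64, 9.39 and 8.99 with DMSO (2.49 ± 0.40; limma adjusted p = 0.0225). Cth, which makes cysteine from cystathionine, read 9.38, 9.23 and 9.81 with PHA+ICG, against 6.89, 7.80 and 7.61 with DMSO (2.04 ± 0.27; adjusted p = 0.0116). Both genes were lowest on DMSO 1. Sesn2, an inhibitor of mTORC1 in amino acid lack (1.12 ± 0.19), the stress protein gene Nupr1 (1.03 ± 0.18) and Psph, the last step of serine synthesis (0.95 ± 0.18), also rose. Asns, the asparagine synthetase, read 11.82, 11.71 and 11.75 with PHA+ICG, against 10.37, 10.89 and 11.07 with DMSO (0.98 ± 0.20). Its adjusted p was 0.0545 without the block and 0.00975 with it. Psat1, of serine synthesis, had 1.06 ± 0.22 (adjusted p = 0.0605, with the block 0.014), and Phgdh, the first enzyme of that path, overlapped between the groups (0.18 ± 0.31).

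Of 20 amino acid transporters 2 rose (10%, against 0.478% of all genes), Slc7a11, the cystine importer (1.27 ± 0.18), and Slc7a1, a carrier of arginine and lysine (1.16 ± 0.19). With the block 9 rose, among them Slc7a5, the large neutral amino acid carrier, which read 11.42, 10.47 and 10.47 with PHA+ICG, against 9.59, 9.77 and 9.62 with DMSO (1.12 ± 0.26; adjusted p = 0.0822, with the block 0.0115). The transporter median was 0.30. Of 19 cytosolic aminoacyl-tRNA synthetases 1 rose (7 with the block), the asparaginyl enzyme gene Nars, which read 13.21, 13.17 and 13.03 with PHA+ICG, against 12.09, 12.06 and 12.24 with DMSO (1.01 ± 0.15). Of 17 NRF2 targets, which defend against oxidants, 5 rose (29.4%, against 0.478% of all genes): Slc7a11, also a member of the transporter list, Srxn1 (1.08 ± 0.21), which repairs peroxiredoxins, the haem oxygenase gene Hmox1 (0.99 ± 0.19), Gclm, of glutathione synthesis (0.86 ± 0.15), and the thioredoxin reductase gene Txnrd1 (0.77 ± 0.15). Nqo1, another classical target, overlapped (0.27 ± 0.29), and the list median was 0.27. Sqstm1, the autophagy receptor p62, read 13.52, 13.47 and 13.71 with PHA+ICG, against 11.78, 12.39 and 12.43 with DMSO (1.37 ± 0.21), the only 1 of 21 lysosome and autophagy genes to pass. The other probe set of Sqstm1 had 0.18. Of 19 p53 targets 1 rose (4 with the block, where 1 fell), Sesn2, which the ATF4 list also holds. The median of the p53 list was 0.47, and 10 of the 19 had an unadjusted p under 0.05, against 13.3% of all genes.

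Binding sites of ATF4 with C/EBP partners can be read as TGATGNAAN. This motif was found on either strand in 7 of 25 promoters of the ATF4 list (28%) and in 5 of 12 of the synthetases (41.7%), against 4.04% of all 27025 promoters. Trib3, with the largest rise of the list, and Slc7a11, with 2 matches that face each other, are shown with the motif in capitals, 5′ to 3′ on the gene's strand. Trib3 lies at chr2:152344011-152344310 and Slc7a11 at chr3:50443564-50443863, both on the minus strand. The matches of Slc7a11 begin 66 and 48 bases upstream of the start.
Trib3: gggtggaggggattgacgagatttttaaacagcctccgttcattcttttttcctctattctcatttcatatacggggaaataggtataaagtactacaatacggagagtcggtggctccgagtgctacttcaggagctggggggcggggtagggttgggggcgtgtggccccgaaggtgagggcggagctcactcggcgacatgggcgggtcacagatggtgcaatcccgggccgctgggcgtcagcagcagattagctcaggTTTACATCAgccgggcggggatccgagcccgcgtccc
Slc7a11: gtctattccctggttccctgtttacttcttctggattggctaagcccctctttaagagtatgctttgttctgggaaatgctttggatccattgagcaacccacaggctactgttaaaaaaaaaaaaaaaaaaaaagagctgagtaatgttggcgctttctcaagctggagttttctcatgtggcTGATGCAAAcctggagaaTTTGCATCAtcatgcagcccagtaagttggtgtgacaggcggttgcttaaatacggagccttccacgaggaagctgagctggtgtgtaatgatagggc

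Of 20 chaperones and folding enzymes of the endoplasmic reticulum 6 fell (30%, against 1.54% of all genes) and 0 rose (8 fell with the block), and the median was −0.38; limma called no gene of the list higher with or without the block. Pdia4, a disulfide isomerase, read 9.04, 8.69 and 9.12 with PHA+ICG, against 10.49, 10.23 and 10.65 with DMSO (−1.51 ± 0.19; limma adjusted p = 0.00993), while its other probe set had 0.11. Calr, the calcium-binding chaperone calreticulin, read 12.60, 11.95 and 12.30 with PHA+ICG, against 13.50, 13.39 and 13.49 with DMSO (−1.18 ± 0.19). The others were Sdf2l1 (−1.30 ± 0.24), Pdia6 (−1.19 ± 0.19), Creld2 (−1.05 ± 0.20) and Manf (−1.01 ± 0.15), which are all known as genes of the unfolded protein response. Hspa5, the chaperone BiP, overlapped between the groups, at 13.48, 13.36 and 13.56 with PHA+ICG and 13.39, 13.44 and 13.68 with DMSO (−0.03 ± 0.16).

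**Figure D2:**
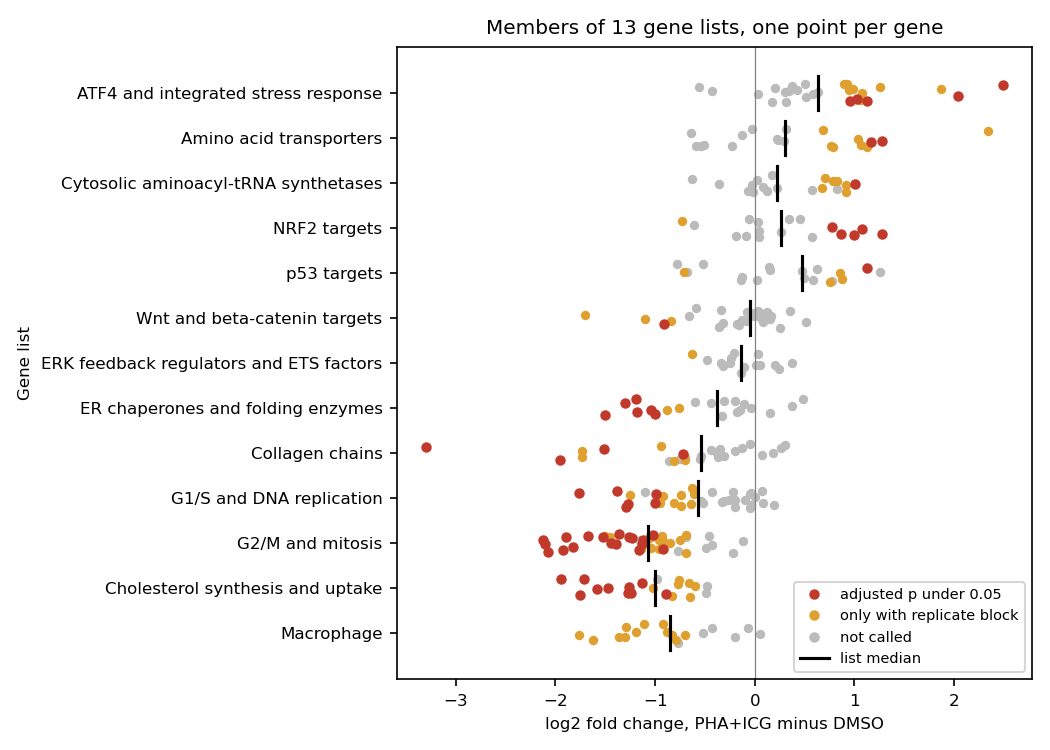
Log2 difference, PHA+ICG minus DMSO, of each member of 13 gene lists, with red points for genes that passed limma at an adjusted p under 0.05, yellow for those that passed with the replicate block but not without it, grey for the rest, and a bar at the list median. All G2/M and cholesterol genes lie left of 0, while 25 of 27 ATF4 genes lie right of it.

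**Figure D3:**
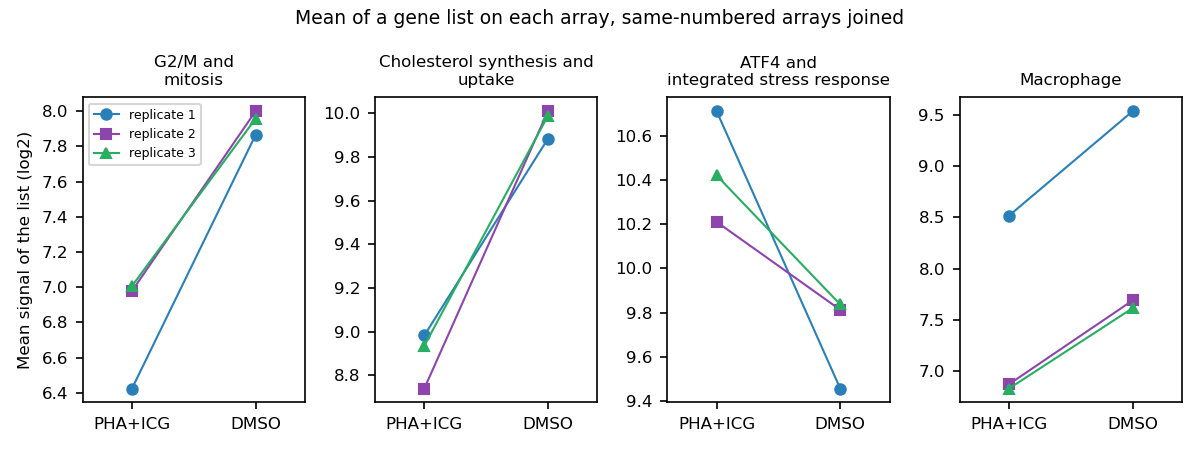
Mean log2 signal of 4 gene lists on each array, PHA+ICG on the left and DMSO on the right, with same-numbered arrays joined and a separate vertical scale in each panel. All 3 pairs run the same way in each panel, and replicate 1 lies far above the others for the macrophage list.

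Lists of genes close to the targets of the compounds are set beside all genes. Of all genes 2.02% passed limma, 13.3% had an unadjusted p under 0.05 and 7.93% passed with the block. At such shares 0 calls in a list of 12 to 17 genes are not a result about the list. Of 12 genes of the MET ligand, receptor and activator list 0 passed limma (1 at an unadjusted p under 0.05; 1 lower with the block). Met read 8.78, 7.56 and 8.28 with PHA+ICG, against 8.20, 7.76 and 7.38 with DMSO (0.42 ± 0.33), and Hgf 6.78, 6.74 and 7.14 with PHA+ICG, against 6.75, 6.92 and 6.60 with DMSO (0.13 ± 0.18), so both overlapped. Of 15 ERK feedback regulators and ETS factors, which follow ERK activity, 0 passed (2 at an unadjusted p under 0.05; 1 lower with the block), and Dusp6, the ERK phosphatase, was within 0.01 ± 0.20 of DMSO. Of 17 immediate early transcription factors 0 passed (2 unadjusted), and with the block 2 fell. Fos was 1 of them and read 10.10, 10.55 and 10.47 with PHA+ICG, against 10.81, 12 and 11.92 with DMSO (−1.20 ± 0.32; adjusted p = 0.115, with the block 0.00348). Klf2, the other, had −0.65 ± 0.24 (adjusted p = 0.265, with the block 0.033). Egr1 overlapped (0.07 ± 0.20).

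Of 28 Wnt and β-catenin targets 1 fell, Nkd2, a feedback inhibitor of the pathway, which read 7.00, 6.82 and 6.68 with PHA+ICG, against 8.01, 7.58 and 7.63 with DMSO (−0.91 ± 0.18; limma adjusted p = 0.0488), although 1 of its 4 probe sets had the opposite sign (0.07). The 1 gene is 3.57% of the list, against 1.54% of all genes called lower. With the block 4 fell, against 6.01% of all genes, and the list median was −0.04. Axin2, the most used readout of β-catenin transcription, read 7.63, 7.78 and 7.55 with PHA+ICG, against 7.54, 7.63 and 7.55 with DMSO, a difference of 0.08 ± 0.15. Lef1 (0.05 ± 0.24), Myc (0.06 ± 0.21) and Ctnnb1, which encodes β-catenin itself (0.00 ± 0.14), also overlapped; a p above the threshold does not show that these genes were the same. Of 37 Wnt ligands, receptors and antagonists 2 fell (5.41%, against 1.54% of all genes), and 6 with the block (against 6.01%). Sfrp1, a secreted antagonist, read 6.67, 5.72 and 5.38 with PHA+ICG, against 8.66, 7.51 and 7.64 with DMSO (−2.01 ± 0.39), and in both groups array 1 was the highest. Fzd2, a receptor, read 6.54, 7.10 and 6.85 with PHA+ICG, against 8.07, 8.25 and 8.33 with DMSO (−1.38 ± 0.19).

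Matrix and stromal genes fell in part. Of 29 collagen chains 4 fell (13.8%, against 1.54% of all genes; 10 with the block), 25 were negative and the median was −0.54. Col1a1 read 9.49, 9.44 and 8.85 with PHA+ICG, against 11.22, 11.01 and 11.39 with DMSO (−1.95 ± 0.21; limma adjusted p = 0.00745). Col15a1 fell by 1.51 and Col5a2 by 0.72 on the log2 scale. Of 15 fibroblast and stromal markers 3 fell (20%, against 1.54% of all genes, and 7 with the block): Col1a1, the microfibril gene Mfap5 (−1.09 ± 0.17) and Lox, which crosslinks collagen (−0.86 ± 0.17). All 15 had a negative difference, with a median of −0.63, and their mean was 11.86, 11.56 and 11.59 with PHA+ICG, against 12.53, 12.32 and 12.28 with DMSO. The part of these markers in the collagen result was not tested. Of 24 matrix proteases and inhibitors 1 rose, Mmp11, and 3 fell (16.7% called, against 2.02% of all genes, and 1 and 11 with the block). The 3 were the collagenase gene Mmp1a (−1.42 ± 0.21), Adamts4 (−1.31 ± 0.25), which cuts aggrecan, and the stromelysin gene Mmp3 (−0.99 ± 0.19). Of 34 chemokine genes and receptors 1 fell, Ackr3, the decoy receptor of CXCL12 (−1.10 ± 0.20). The 1 gene is 2.94% of the list, against 1.54% of all genes. With the block, where 6.01% of all genes fell, 7 of the list fell. Among them Cxcl12 itself read 9.26, 7.52 and 7.68 with PHA+ICG, against 11.39, 9.54 and 9.60 with DMSO (−2.02 ± 0.59; adjusted p = 0.151, with the block 9.17e-05). Array 1 was the highest for Cxcl12 in both groups, and PHA+ICG 1 lay close to DMSO 2 and DMSO 3. Another of its 3 probe sets had the opposite sign (0.17).

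Macrophage markers were lower in the fit with the replicate block. Of 18, 0 passed limma without the block (4 at an unadjusted p under 0.05), 12 were lower with it and 6 without array 1 of both groups. Over all genes 2.02% passed, 13.3% had an unadjusted p under 0.05 and 6.01% were lower with the block. Of the 18, 17 had a negative difference and the median was −0.85. Csf1r, the receptor that keeps macrophages alive, read 9.44, 7.74 and 7.30 with PHA+ICG, against 10.75, 9.31 and 9.27 with DMSO (−1.62 ± 0.58; adjusted p = 0.253, with the block 0.000495). Cd68, a lysosomal protein of macrophages, differed less (−0.52 ± 0.91; with the block 0.0884), and Lyz2 was at −0.20 ± 0.57. Of 14 mast cell and basophil markers 2 fell (14.3%, against 1.54% of all genes), and 4 with the block. The 2 encode proteases. Mcpt8 read 10.76, 10.92 and 10.67 with PHA+ICG, against 12, 12.73 and 12.78 with DMSO (−1.72 ± 0.23). Cma1 read 7.20, 6.77 and 6.93 with PHA+ICG, against 8.19, 8.75 and 8.61 with DMSO (−1.55 ± 0.20). The mean of the 14 was 6.57, 6.59 and 6.45 with PHA+ICG, against 6.97, 7.23 and 7.31 with DMSO. Of 15 endothelial markers 0 passed, 1 at an unadjusted p under 0.05 and 0 with the block. Of 13 lymphocyte and leukocyte markers 0 passed (1 unadjusted, 3 lower with the block).

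No luminal or basal gene of the epithelial lists passed limma on all 6 arrays without the block. Over all genes 2.02% passed, 13.3% had an unadjusted p under 0.05 and 6.01% were lower with the block. Of 18 luminal genes 0 passed (4 unadjusted), 6 were lower with the block and 7 without array 1 of both groups; their mean was 7.46, 6.52 and 6.46 with PHA+ICG, against 7.66, 7.26 and 7.28 with DMSO. Krt8, a luminal keratin, read 10.24, 8.04 and 9.11 with PHA+ICG, against 10.51, 10.21 and 10.37 with DMSO (−1.23 ± 0.47; adjusted p = 0.285, with the block 0.0262). Of 20 basal genes 0 passed (5 unadjusted), 5 were lower without array 1 of both groups and 4 with the block, among them Krt14, which read 9.17, 8.28 and 8.23 with PHA+ICG, against 9.47, 10.07 and 10.02 with DMSO (−1.29 ± 0.29; adjusted p = 0.068, with the block 0.0149). Krt5 overlapped (−0.49 ± 0.24). Csn2, the milk protein β-casein, read 6.70, 3.45 and 4.06 with PHA+ICG, against 13.01, 7.19 and 7.00 with DMSO (−4.33 ± 1.55). The spread between its DMSO arrays was larger than the difference between the groups, and its limma adjusted p was 0.247 without the block, 0.000495 with it and 0.000377 without array 1 of both groups.

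Of 31 squamous and cornified envelope genes 3 fell (4 with the block, 12 without array 1 of both groups), and the median was −0.20, or −0.60 without array 1. The 3 are 9.68% of the list. Over all genes 1.54% were called lower, 6.01% with the block, and 753 of 18193 genes without array 1 of both groups. Ivl, which encodes involucrin of the cornified envelope, read 7.68, 7.09 and 7.62 with PHA+ICG, against 9.28, 9.94 and 9.98 with DMSO (−2.27 ± 0.25; limma adjusted p = 0.00745), and Lce3a 7.60, 7.81 and 7.62 with PHA+ICG, against 9.11, 9.61 and 9.54 with DMSO (−1.74 ± 0.18). Krt6b was the third. The mean of the list was 6.73, 5.90 and 5.72 with PHA+ICG and 6.07, 6.78 and 6.80 with DMSO, so PHA+ICG 1 lay among the DMSO arrays and DMSO 1 between PHA+ICG 1 and PHA+ICG 2.

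The first set gives the effect of each compound alone, against DMSO arrays of its own, and shares no array with the second. In a fit of all 15 arrays with 1 weight per set, PHA alone changed 1821 genes (10%; 3.53% higher, 6.48% lower) and ICG alone 4801 (26.4%; 12% higher, 14.4% lower); both are set against the same 3 DMSO arrays. First-set arrays had 5.90 times the weight of second-set arrays, a ratio estimated from the spread within each set. Of the 368 genes called with PHA+ICG, 299 were also called with ICG alone in the same direction, which is 81.2% of the 368 and 6.23% of the 4801. With PHA alone 74 were called in the same direction, which is 20.1% of the 368 and 4.06% of the 1821. By direction, 68 of the 87 higher genes and 231 of the 281 lower genes were called the same way with ICG, and 3 and 71 with PHA. In the opposite direction 24 of the 368 were called with PHA and 4 with ICG, and 51 were called with neither compound alone. The 368 come from the fit of 6 arrays and the 1821 and 4801 from the weighted fit of 15. These shares therefore set calls of unlike power side by side.

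The effect of PHA+ICG differed from that of PHA alone for 499 genes (2.74%), 197 toward higher (1.08%) and 302 toward lower values (1.66%), and from that of ICG alone for 70 genes (0.385%), 22 toward higher (0.121%) and 48 toward lower (0.264%). With the second set's replicate block the counts were 1149 and 284. The first count was 275 without PHA+ICG 3, 180 without DMSO 2 and 149 without DMSO 3 of the second set. The second was 144 without PHA+ICG 1, 106 without DMSO 1, 28 without PHA+ICG 3, 23 without DMSO 2 and 1 without DMSO 3. Since each compound's arm lies in 1 set, a difference between sets in how spheres respond and a difference between treatments cannot be told apart.

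Of 20 cholesterol genes 16 had a lower effect, each against the DMSO of its own set, with PHA+ICG than with PHA alone by this test. Their median was −0.998 with PHA+ICG, 0.23 with PHA alone, where 7 rose, and −0.35 with ICG alone, where 13 fell. Lss alone differed in its effect from ICG (a difference of −0.95, limma adjusted p = 0.0456). Its level was not lower, with means of 8.16 with PHA+ICG, 8.09 with PHA and 7.59 with ICG. Its DMSO mean was 9.42 in the second set and 7.89 in the first. Idi1 had −1.58 ± 0.16 with PHA+ICG, 0.69 with PHA and −1.08 with ICG. Of the G2/M genes 0 changed with PHA alone (median −0.05) and 36 of 41 fell with ICG alone (median −1.04), near the −1.07 of the combination. For this list 3 genes differed from PHA and 0 from ICG in the 15-array fit. ATF4 genes had a median of 0.64 with PHA+ICG, −0.16 with PHA, where 7 fell, and 1.04 with ICG, where 23 rose. Of the 27, 14 had an effect above that of PHA, and 3 had one below that of ICG: Phgdh (by 1.73), Psat1 (by 1.27) and Asns (by 1.19), all enzymes of amino acid synthesis. The levels of these 3 were not lower than with ICG. Psat1 had means of 11.60 with PHA+ICG and 10.94 with ICG, Asns 11.76 and 11.14, and Phgdh 11.21 and 10.81. Their DMSO means were higher in the second set than in the first: 10.54 and 8.62 for Psat1, 10.775 and 8.96 for Asns, and 11.03 and 8.91 for Phgdh.

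**Figure D4:**
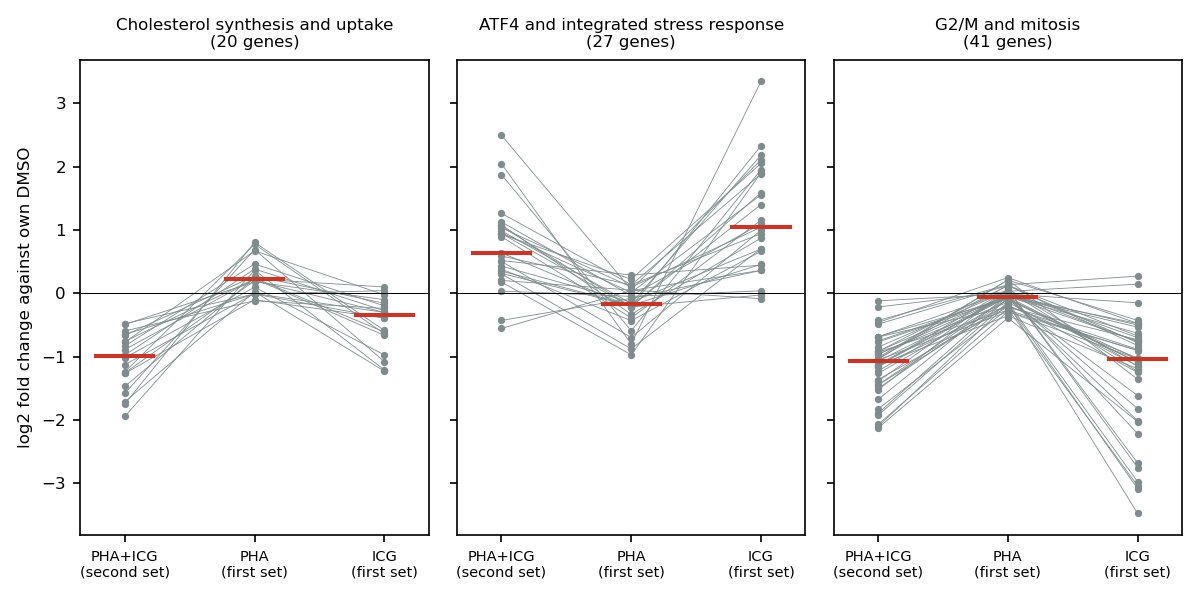
Log2 fold change against the DMSO arrays of the same set for 3 gene lists with PHA+ICG, with PHA alone and with ICG alone, 1 line per gene and a red bar at the median. Medians of the cholesterol list were −0.998, 0.23 and −0.35, of the ATF4 list 0.64, −0.16 and 1.04, and of the G2/M list −1.07, −0.05 and −1.04.

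Among the 30 genes at both ends, 11 passed both tests of difference, which share the second set's arrays and the first set's DMSO arrays. Chchd10 had 2.76 ± 0.15 with PHA+ICG, 0.09 ± 0.08 with PHA and 1.64 ± 0.08 with ICG. The effect of the combination was thus 1.12 ± 0.20 above that of ICG (limma adjusted p = 0.0199). Dlg2 had 2.55 ± 0.21 with PHA+ICG, −0.23 ± 0.10 with PHA and 0.13 ± 0.10 with ICG, and Mei4 2.70 ± 0.35 with PHA+ICG, −0.23 ± 0.14 with PHA and 0.19 ± 0.14 with ICG. Neither gene was called with either compound alone, and both had first-set DMSO means as low as in the second set, 4.04 for Dlg2 and 3.09 for Mei4. Tenm4 (an effect 1.92 above that of ICG), Ednrb (1.62), Prss12 (1.35) and Mmp11 (1.22) were called with ICG alone as well, at a smaller size. The level of Ednrb was lower with PHA+ICG than with ICG, with means of 7.55 and 8.02. Those of Tenm4 (9.80 and 6.72), Prss12 (9.00 and 8.56) and Mmp11 (10.50 and 8.70) were higher. DMSO means in the second and first set were 5.16 and 7.24 for Ednrb and 6.78 and 5.61 for Tenm4. They were 6.72 and 7.63 for Prss12 and 8.47 and 7.88 for Mmp11. Ednrb fell with PHA alone (−0.74 ± 0.10). Agtr2, Col11a1, Aldh1a7 and Tmem35a had first-set DMSO means of 3.68, 3.99, 3.64 and 4.63, so they had little room to fall there. Their second-set DMSO means were 9.10, 8.73, 7.76 and 7.68. Agtr2 was still called lower with PHA (−0.64 ± 0.17) and with ICG (−0.62 ± 0.17), and the others with neither. Arg1 fell by a similar size in all arms, with −3.34 for PHA+ICG, −3.18 for PHA and −3.42 for ICG. S100a4 had −2.51 with PHA+ICG, −1.09 with PHA and −3.50 with ICG.

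**Figure D5:**
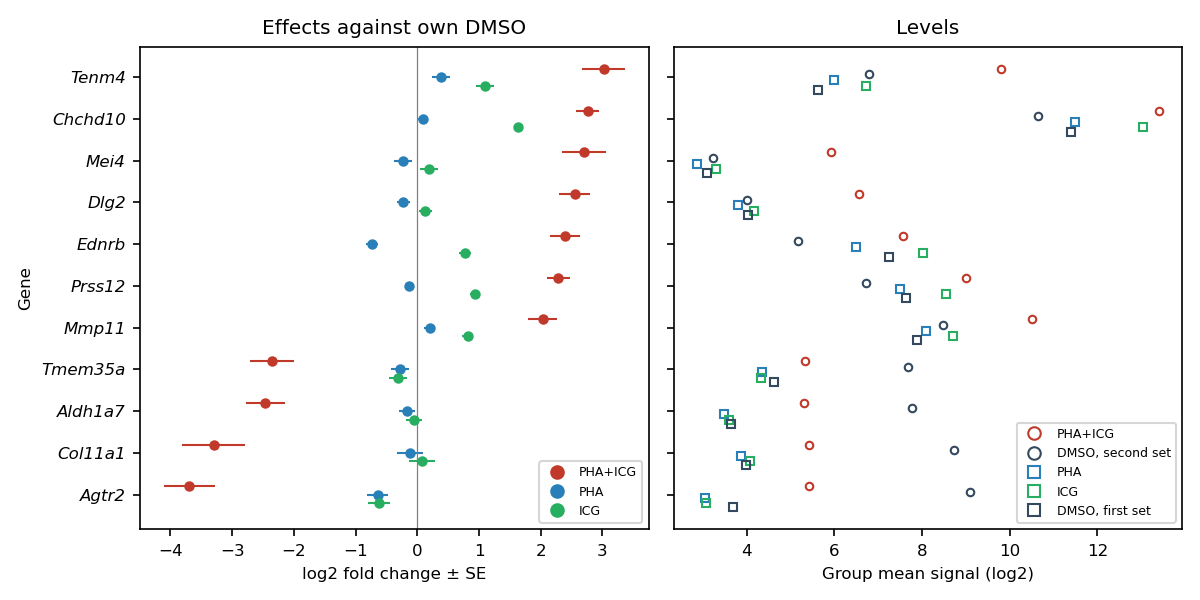
Left, log2 fold change ± SE against the DMSO arrays of the same set for the 11 genes that passed both tests of difference; right, their group mean log2 signal in all 5 groups. Mei4, Dlg2 and the 4 lowest genes have first-set DMSO means under 5, close to the floor of the arrays.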

How the data were processed

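The deposited log2 values (45101 probe sets, 15 arrays) were used without further normalization. RMA and MAS5 are named in the submitters' processing notes, without versions; whether both sets were normalized together is not given in the sources used here. The array's annotation table gave 1 symbol to 34945 probe sets; 932 with several symbols and 64 controls were left out, and 9160 with no symbol were tested on their own. For each of 18193 genes 1 probe set was kept, that with the highest 15-array mean (9010 genes had more than 1). The 6 arrays of the second set were fitted with limma 3.58.1 in R 4.3.3 (lmFit, eBayes) with calls made at 0.05 after Benjamini-Hochberg adjustment over all genes. Differences from the effect of PHA or ICG alone came from all 15 arrays with 1 estimated weight per set (arrayWeights).

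Same-numbered arrays correlated at 0.614, 0.363 and 0.277 in their deviations from the group means, so they were taken as pairs. Values with the replicate number as a block are therefore given, but what a number shares is not in the labels. DMSO 3 also correlated at 0.351 with PHA+ICG 2, and DMSO 2 at 0.238 with PHA+ICG 3. Deviations in a group sum to 0, so where array 1 stands apart in both groups, arrays 2 and 3 correlate whatever their number. The correlations thus cannot show that arrays 2 and 3 are pairs. The 52 gene lists, the named genes and the tests were chosen with earlier results of these data known, and lists can share members. Named genes were the 15 highest and 15 lowest called genes whose groups did not overlap, up to 6 called and 3 other members of each list by size of change, and a short set of pathway and marker genes. Promoter sequences are from RefSeq, build GRCm38.p6, and motifs were searched on both strands. The procedure was tested on simulated data. Other settings were quantile normalization, median centring, a filter on dim genes (a mean of at least 5), probe-set means, trend and robust settings, a random block, a fit of all 15 arrays and leaving out each array; leaving out array 1, 2 or 3 of both groups was added after seeing the data, as was quantile normalization with the block.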

Additional observations from a re-analysis of the deposited data

How the results depend on the processing

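Against the 368 genes called for PHA+ICG against DMSO, 1442 passed with the replicate block, 1023 with the pairs as a random block, 1316 with quantile normalization and the replicate block together, and 2413 in the fit of all 15 arrays with equal weights, where both sets share 1 estimate of the spread. Leaving out 1 array, or 1 pair of same-numbered arrays, gave 0 to 886. Quantile normalization (369 genes, 296 of them among the 368), median centring (323), a mean of at least 5 (379) and trend and robust settings (418) stayed within 1.5 times. The difference from PHA (499 genes) became 860 with equal weights, 1149 with the replicate block in the second set and 149 to 719 without 1 array; that from ICG (70) became 160, 284 and 1 to 144, and 42 with a mean of at least 5. Of 92 called genes named by the rule, all kept their direction in every setting. Their call was kept by 30 without DMSO 3, by 88 under quantile normalization and by 0 without array 2 or array 3 of both groups. In the 15-array fit with 1 weight per set, some of them passed for PHA+ICG against DMSO and some did not. Limma adjusted p there was 2.49e-06 for Chchd10 and 0.00109 for Mvd, but 0.106 for Mki67, 0.0877 for Ccnb2, 0.0556 for Top2a and 0.066 for Col1a1. The replicate block ended no call. Why the counts moved was not tested. With 3 arrays a group and no detection calls, small changes of dim genes cannot be resolved, and the number of arrays limits the precision.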

Other observations

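In other gene groups few genes or none passed limma without the block. The genes that passed were not always those with the largest change in their list. Of 24 BMP and TGF-β feedback genes 1 fell, Inhbb, an activin subunit (−1.25 ± 0.14; limma adjusted p = 0.00791), and 7 were lower with the block, among them Bambi, a decoy receptor (−1.10 ± 0.28; with the block 0.0023). Of 21 glycolysis and hypoxia genes 20 had a negative difference, with a median of −0.46, and Aldoc, an aldolase, fell by 1.27 on the log2 scale (5 lower with the block). Pdk1, which holds pyruvate out of the mitochondria, had −1.81 ± 0.44 (adjusted p = 0.09, with the block 0.00362). Of 18 endothelin, angiotensin and kinin genes Ednrb rose while Agtr2 and Avpr1a, a vasopressin receptor (−1.07 ± 0.15), fell. Of 26 integrin and laminin subunits 1 fell, Itgb5 (−1.30 ± 0.26; 5 with the block). Of 27 interferon-stimulated genes 0 passed limma (8 at an unadjusted p under 0.05; 7 lower with the block), and of 23 MYC and ribosome biogenesis genes 0 passed (3 unadjusted; 1 higher with the block). Of 17 Notch pathway genes 0 passed (2 unadjusted, 0 with the block). Over all genes 2.02% passed, 13.3% had an unadjusted p under 0.05 and 7.93% passed with the block.

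Some genes were chosen after their values were seen, because they passed both tests of difference from the single compounds. Vgf, a secreted neuropeptide precursor, read 8.45, 7.33 and 8.19 with PHA+ICG, against 6.07, 6.27 and 6.09 with DMSO (1.85 ± 0.28; limma adjusted p = 0.0185), and had 0.13 with PHA and −0.06 with ICG. Qpct, which forms pyroglutamate at the ends of peptides, read 10.92, 10.96 and 10.33 with PHA+ICG, against 9.27, 8.70 and 8.72 with DMSO (1.84 ± 0.24), and had 0.17 with each compound alone. In both genes the groups did not overlap. Sgk1, a kinase induced by serum and glucocorticoids, read 10.98, 10.70 and 11.16 with PHA+ICG, against 12.11, 12.04 and 12.31 with DMSO (−1.21 ± 0.18), and had 0.04 with PHA and 0.09 with ICG, although its first-set DMSO mean was high at 13.37. Of 9160 probe sets with no symbol, 8 were higher and 23 lower with PHA+ICG.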
